A study of Rattus norvegicus with 36 samples.

Results

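Myoc, the gene for myocilin, was followed across rat extraocular muscle (EOM) and a leg sample over the weeks after birth. It is represented by the 1 probe set, of 8799 on the array, that is annotated to the symbol Myoc alone, so the gene is 1 of 4737 that the array names singly. The gene was chosen because its level rose after birth with a different timing in EOM and leg, so its own levels are given below as a description with no test. Total RNA was hybridised to Affymetrix RG-U34A arrays, on which a probe set is a group of short probes for 1 transcript. EOM, the muscles that move the eye, and leg, a sample of gastrocnemius and soleus, were each taken at postnatal days 0, 7, 14, 21, 28 and 45, with 3 arrays in each of the 12 groups. No treatment is given in the labels, and strain, sex and the number of animals per array are also not stated, so p-values below measure the spread between these arrays, which may be technical.

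Myocilin is a secreted glycoprotein with an olfactomedin domain, best known from the trabecular meshwork of the eye, where glucocorticoids raise its expression and where mutant forms that misfold in the endoplasmic reticulum cause a form of glaucoma. It is also expressed outside the eye, including in skeletal muscle and peripheral nerve. Binding to fibronectin, to the matricellular protein hevin and to the dystrophin complex has been reported for it, and myocilin has been linked to ErbB signalling in myelinating cells and to Wnt signalling.

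The bases just before the start of the gene are shown because the results concern how much of its transcript is present at each age. The sequence is from RefSeq on the plus strand of chromosome 13 in build GRCr8, chr13:77509713-77509962. Capitals mark, from left to right, an E box (CANNTG, the core bound by myogenic factors of the MyoD family), a match to the MEF2 consensus, a second E box and a TATA box core (TATAAA).
Myoc: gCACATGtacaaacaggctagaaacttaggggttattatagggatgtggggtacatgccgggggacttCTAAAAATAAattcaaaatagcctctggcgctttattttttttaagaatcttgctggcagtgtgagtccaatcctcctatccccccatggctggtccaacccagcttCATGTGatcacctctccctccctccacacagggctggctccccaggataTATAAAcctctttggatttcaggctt

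Both strands were searched in this window and in the same 250 bases of 21851 protein-coding rat genes. The MEF2 consensus was found in 2.69% of those windows, TATAAA in 12.1% and an E box in 63.3%. Counted from the start of the gene, the TATA core of Myoc begins at -26, the MEF2 match at -182 and the E boxes at -249 and -75. A glucocorticoid receptor half-site (TGTTCT, present in 15.3% of windows) and a CArG box (1.52%) were not found in these letters. The motifs were chosen with the sequence in view, and a match describes letters, not binding.

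Myoc was near the bottom of the scale at birth and among the brighter probe sets of each muscle at day 45. Intensities are in the authors' scaled array units. On the 3 EOM arrays of day 0 it read 97.9, 58 and 255.4, and on those of leg 34.5, 47.5 and 55. A floor of 100.9 units (log2 6.66), the 20th percentile of all values, lay above 2 of the 3 EOM arrays and all 3 leg arrays, so Myoc was not told apart from background in newborn leg. At day 7 the EOM arrays read 188.9, 315.1 and 199.9 and the leg arrays 296, 159.9 and 242.8. The muscles overlapped fully at this age, and every array of both had passed the floor.

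At day 14 EOM read 828.8, 750.5 and 900.4, and leg 645.1, 510.2 and 546. From here the muscles parted. EOM went on to 1445.4, 1677.4 and 2251.6 at day 21, where leg read 582.4, 552.3 and 1012.4. At day 28 EOM read 3681.6, 3437.9 and 3049.3 and leg 706.4, 626.2 and 1094.2. All 3 EOM arrays lay above all 3 leg arrays at days 14, 21 and 28, ages at which 2.61%, 3.48% and 7.63% of all 6672 tested probe sets were higher in EOM at an adjusted p of 0.05 in limma, the linear-model test used throughout. Nothing is read from these shares, because the gene was chosen on these values.

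At day 45 EOM read 3474, 3205 and 3380.2, within 0.01 of its day 28 level on the log2 scale, and leg read 1690.5, 1895.1 and 3819.3. The groups overlapped again at this age, through leg replicate 3, which read higher than every EOM array. Replicate 3 was also the highest leg array at days 21 and 28. Against the other probe sets of the same array, Myoc was brighter than 7.15% to 11.6% of them in leg at day 0 and 76.4% to 88.2% at day 45. In EOM these shares were 12.2% to 33.6% at day 0 and 86.2% to 87.6% at day 45.

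**Figure D1:**
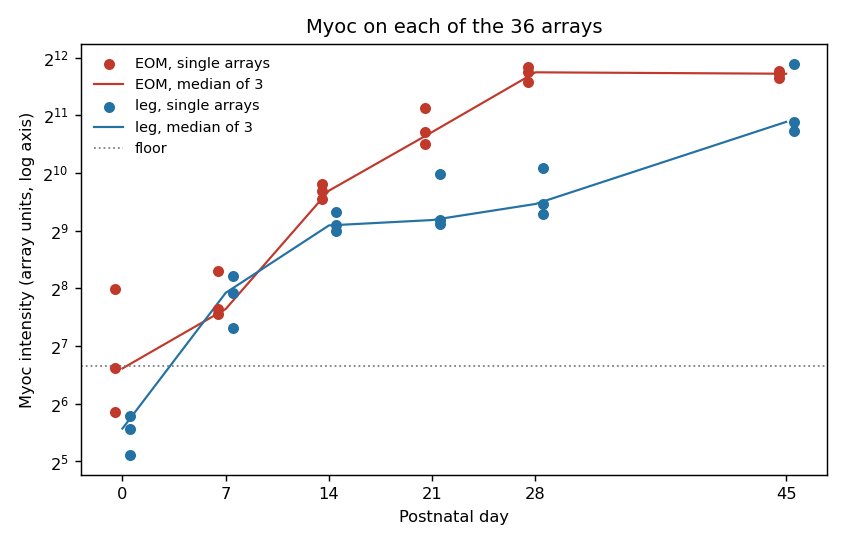
Myoc intensity (array units, log axis) on every array against postnatal day, with EOM and leg arrays as points and lines through the median of 3; the dotted line is the floor of 100.9 units. The EOM arrays stand above the leg arrays at days 14, 21 and 28 and overlap with them at days 0, 7 and 45.

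Ordered by group mean on the log2 scale, the 12 groups ran from leg day 0 (6.66) and EOM day 0 (7.1 ± 0.77, SD, n = 3) to EOM day 45 (11.71 ± 0.06) and EOM day 28 (11.72 ± 0.14). Leg and EOM at day 7 stood next to each other at 7.82 ± 0.45 and 7.83 ± 0.4. Leg at days 14, 21 and 28 (9.14 ± 0.17, 9.43 ± 0.48 and 9.62 ± 0.42) and EOM at day 14 (9.69 ± 0.13) formed a run in which each neighbour overlapped with the next. EOM day 21 (10.78 ± 0.33) and leg day 45 (11.17 ± 0.64) followed. Of the 11 neighbouring pairs in this order, those without overlap of their arrays were EOM day 7 with leg day 14, which are 1.31 apart, and EOM day 14 with EOM day 21, 1.09 apart.

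The difference between the muscles, EOM minus leg on the log2 scale with the standard error of the limma fit, was 0.45 ± 0.33 at day 0 and 0.02 ± 0.33 at day 7. It was 0.55 ± 0.33 at day 14 and 1.36 ± 0.33 at day 21, and the widest gap was 2.11 ± 0.33 at day 28, a 4.3-fold higher level in EOM. At day 45 the difference was 0.54 ± 0.33. Leg replicate 3 decides how wide that last gap is, since without it the difference was 0.9. The day 0 difference rests on EOM replicate 3, without which it was 0 because all remaining arrays lay at the floor.

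EOM had reached its day 45 level by day 28, while leg still rose between days 28 and 45, the last ages measured. Whether leg rises further was not measured. From day 0 to day 45 Myoc rose by 4.61 ± 0.33 in EOM, at least 24.4-fold, and by 4.51 ± 0.33 in leg, at least 22.8-fold. These are lower bounds because 2 of the 3 EOM arrays and all 3 leg arrays of day 0 lay at the floor. The difference between the changes, 0.09 ± 0.47, has no settled sign, since it was -0.64 with a floor at the 10th percentile and -0.1 on a log2(value + 100) scale. In EOM the steps between ages were 0.73, 1.85, 1.09, 0.94 and -0.01, each ± 0.33. In leg they were 1.16, 1.32, 0.29, 0.19 and 1.55, each ± 0.33.

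The leg steps were smallest between days 14 and 28. The first leg step starts from arrays at the floor and is a lower bound, which was 2.18 with the floor at the 10th percentile. Without leg replicate 3 of day 21 the step from day 14 to day 21 was 0.01, and without replicate 3 of day 28 the step from day 21 to day 28 was -0.05. The step from day 28 to day 45 was 1.19 without replicate 3 of day 45. As a share of the day 45 mean, EOM stood at 24.7% at day 14, 53.4% at day 21 and 101% at day 28, and leg at 23%, 29% and 32.8%. Without replicate 3 of day 45 the leg mean was 1792.8 and its day 28 share was 45.1%.

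**Figure D2:**
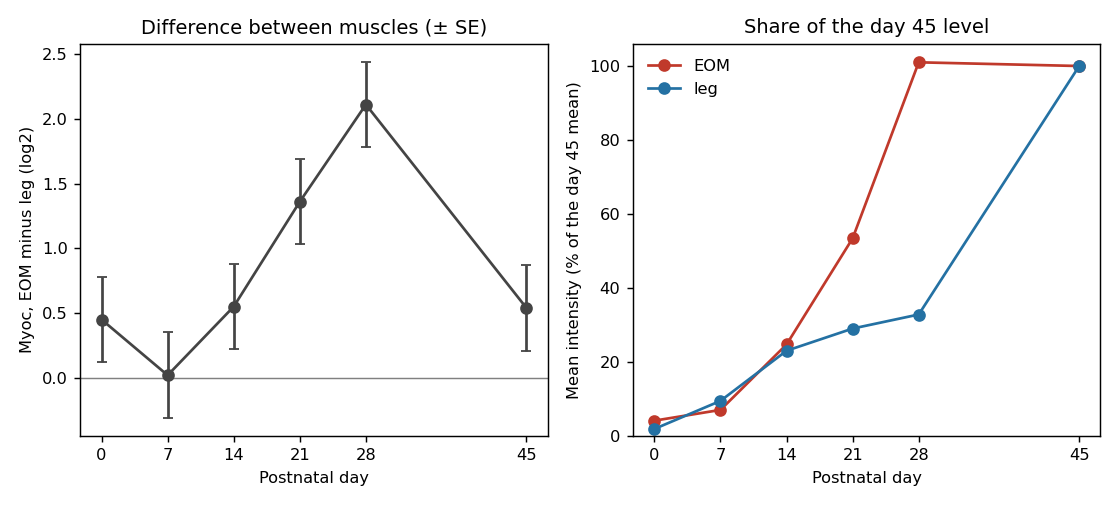
Left, Myoc in EOM minus leg (log2, ± SE of the fit over 36 arrays) against postnatal day; right, mean Myoc intensity of each muscle as a percentage of its own day 45 mean. The difference is widest at day 28 (2.11), when EOM is at 101% and leg at 32.8% of the day 45 level.

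Among all 6672 tested probe sets, 11 had a larger rise from day 0 to day 45 in EOM than Myoc, and 13 in leg. At day 28, 74 probe sets were higher in EOM over leg by more than Myoc. For the late leg step between days 28 and 45, 55 probe sets rose by more. For the EOM step between days 7 and 14, 29 rose by more. These ranks describe the size of the change and are not a test.

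**Figure D3:**
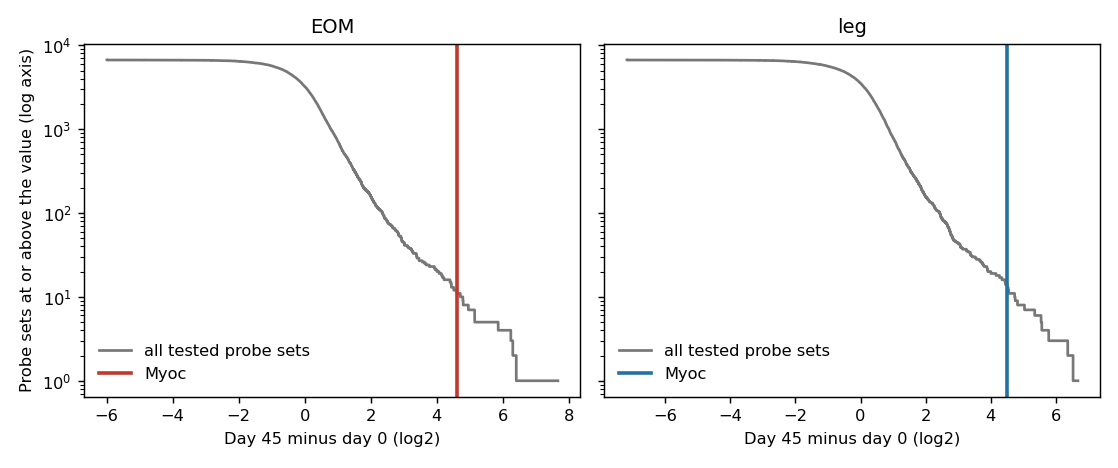
Number of tested probe sets (log axis) whose change from day 0 to day 45 (log2) is at or above the value on the horizontal axis, in EOM and leg, with Myoc as a vertical line. Myoc lies at 4.61 in EOM and 4.51 in leg, with 11 and 13 probe sets to its right.

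Genes with the most similar course were found by Pearson correlation of the 12 group means with those of Myoc. This was done over 2663 genes whose group means spanned at least 1 log2 unit. Of these, 38 correlated above 0.9. The 12 points share their arrays, muscle and ages, so the coefficients describe similarity only. Vegfa, an angiogenic growth factor, had the highest (0.969), followed by the transporter Slc41a3 (0.967) and the protein repair methyltransferase Pcmt1 (0.967). The secreted glutathione peroxidase Gpx3 reached 0.964. Slc2a4, the insulin-responsive glucose transporter of muscle and fat, reached 0.961, and Cyp27a1, a mitochondrial sterol hydroxylase, 0.958. Masp1, a protease of the lectin pathway of complement (0.951), Cd59b, a CD59 family inhibitor of complement (0.95), Ggt5, a gamma-glutamyl transferase (0.949), and the kinase Dapk2 (0.942) completed the 10. The order depends on the measure. By Spearman (rank) correlation, over the 36 arrays and by the lower of the within-muscle values, Vegfa ranked 19, 16 and 19. Ggt5 ranked 42, 45 and 23 and Dapk2 41, 22 and 16. Gpx3 (2, 1 and 7) and Slc2a4 (6, 2 and 1) stayed within the 10 each time.

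None of these 10 spanned as wide a range as Myoc. The change from day 0 to day 45 in EOM was 2.92 for Slc2a4, 2.48 for Gpx3, 2.41 for Cyp27a1 and 1.99 for Vegfa on the log2 scale, against 4.61 for Myoc. Slc2a4 shared the pause in leg, with group means of 12.48, 12.75 and 12.75 at days 14, 21 and 28 and 13.73 at day 45. At day 28 Gpx3 was higher in EOM than leg by 1.18, Vegfa by 1.15 and Slc2a4 by 0.87, and at day 45 the same differences were 0.22, 0.12 and -0.26. The probe sets of a gene did not always match: a second Gpx3 probe set correlated at 0.95, a second of Slc2a4 at 0.715, and 3 others of Vegfa at 0.679 to 0.931.

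Taken by muscle, over 6 ages each, the closest courses in EOM were those of Cyp27a1 (0.994), the lactate transporter Slc16a1 (0.993) and Phkg1, a catalytic subunit of muscle phosphorylase kinase (0.993). Slc16a1 correlated at 0.407 over the leg ages. In leg the closest were Slc2a4 (0.995), Dglucy (0.992) and Cds1, an enzyme of phospholipid synthesis (0.987). Cds1 correlated at 0.698 over the EOM ages, and its other probe sets correlated with Myoc at 0.283 and -0.021 over all groups.

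The lowest coefficients were those of Cdk1, the mitotic kinase (-0.981), Prim1, a subunit of DNA primase (-0.965), the replication protein Rpa3 (-0.963), the nucleolar GTPase Gnl3 (-0.963) and the 14-3-3 protein Ywhah (-0.959). Cdk1 changed by -3.05 in EOM and -2.73 in leg from day 0 to day 45. At day 28 its EOM minus leg difference was -1.12, and at day 45 it was -0.17.

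**Figure D4:**
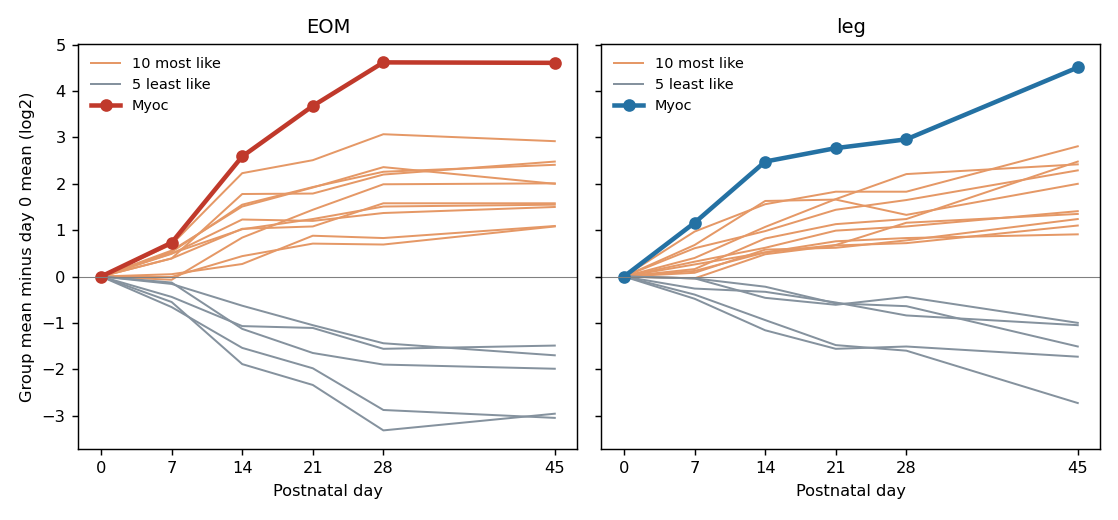
Group mean minus the day 0 mean of the same muscle (log2) against postnatal day in EOM and leg for Myoc, the 10 genes whose course is most like it over the 12 groups and the 5 least like it. Myoc climbs to 4.61 in EOM and 4.51 in leg, and among the 10 the largest day 45 change in EOM is 2.92 (Slc2a4).

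Of the 10 most similar genes, 7 had a promoter window in the RefSeq table. None of the 7 held the MEF2 consensus (2.69% of all windows) or TATAAA (12.1%), and 5 held an E box (63.3%). The glucocorticoid receptor half-site (15.3%) was in 1, Gpx3, and the CArG box (1.52%) in 0. With 7 genes, nothing is read from these counts.

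Genes reported to bind myocilin or to act with it were tested with limma over all probe sets, with Benjamini-Hochberg adjustment and a threshold of 0.05. Of 28 such genes 15 were measured. From day 0 to day 45, 2 rose and 5 fell in EOM, where 12.9% of all tested probe sets rose and 18.4% fell. In leg 3 rose and 7 fell, where 14.4% and 18.5% did. The list's median change was -0.21 in EOM and -0.33 in leg, beside -0.04 and 0.06 over all tested probe sets. List medians for a change, here and below, are medians over the changes of the members.

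Fn1, the matrix protein fibronectin, fell by 1.05 ± 0.2 in EOM (adjusted p = 0.000136) and fell by 1.81 ± 0.2 in leg (adjusted p = 2.82e-08) on its probe set of highest mean. The other tested Fn1 probe sets did not pass, with changes of -0.36 and -0.01 in EOM (adjusted p = 0.582 and 0.991) and -0.41 and -0.68 in leg (adjusted p = 0.501 and 0.177). The Wnt receptors Fzd1 and Fzd2 changed by -1.91 ± 0.23 and -1.67 ± 0.4 in EOM (adjusted p = 1.12e-07 and 0.00176), and Fzd2 fell by 1.49 ± 0.4 in leg (adjusted p = 0.00465). Erbb2, a receptor subunit for neuregulin signals, fell by 1.43 ± 0.38 in EOM (adjusted p = 0.00409) and fell by 2.17 ± 0.38 in leg (adjusted p = 3.82e-05). Ptk2, the focal adhesion kinase, fell by 1.19 ± 0.23 in leg (adjusted p = 0.000112). The change was -1.07 for Fzd1 in leg and -0.91 for Ptk2 in EOM. For neither did the difference between the muscles pass the test (adjusted p = 0.17 and 0.792). The one gain among the 4 largest EOM changes was Sfrp4, a secreted Wnt antagonist, at 1.61 ± 0.58 (adjusted p = 0.0339), with overlapping groups. Its change in leg was -0.29, and the difference between the muscles did not pass the test (1.9 ± 0.82, adjusted p = 0.26).

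At day 28, when Myoc differed most between the muscles, 3 of the 15 partners were higher in EOM and 1 was lower, against 7.63% and 4.18% of all tested probe sets. Higher were Fzd2 (1.95 ± 0.4, adjusted p = 0.00124), Fn1 (1.36 ± 0.2, adjusted p = 2.05e-05) and Sparcl1, which encodes hevin (0.87 ± 0.28, adjusted p = 0.0348). The other Fn1 probe sets gave -0.23 and 0.95 at day 28 (adjusted p = 0.816 and 0.107), so they disagree in sign. Lower was Myl2, the slow regulatory light chain of myosin (-0.57 ± 0.19, adjusted p = 0.0474). The list's median difference at day 28 was 0.28, beside 0.05 over all tested probe sets. At day 45, 6.89% of all tested probe sets were higher and 3.69% lower in EOM. With each gene taken on its probe set of highest mean, Fn1 alone of the 15 passed the test. Its difference was 0.7 ± 0.2 (adjusted p = 0.022), with overlapping groups, while the other Fn1 probe sets gave -0.32 and -0.21 (adjusted p = 0.769 and 0.832). Erbb2 was 1.11 ± 0.38 at day 28 and 1.09 ± 0.38 at day 45 (adjusted p = 0.0535 and 0.0641), and passed at both ages with the replicate number as a block (adjusted p = 0.0307 and 0.0357). Erbb3, the partner receptor of Erbb2, had changes of -0.21 ± 0.33 in EOM and -0.12 ± 0.33 in leg (adjusted p = 0.672 and 0.812). Olfm1, another olfactomedin domain gene, had a change of -0.13 ± 0.31 in EOM (adjusted p = 0.794) and rose by 0.85 ± 0.31 in leg (adjusted p = 0.0366). A second Olfm1 probe set was near the floor in leg and fell in EOM from a group mean of 10.49 to 8.56, so the probe sets disagree. This second probe set was higher in EOM than leg by 2.07 ± 0.51 at day 28 and 1.89 ± 0.51 at day 45 (adjusted p = 0.00576 and 0.0135). The probe set of highest mean gave -0.17 and -0.1 (adjusted p = 0.809 and 0.919).

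Of 18 genes of the dystrophin complex and its neighbours, 6 were measured. By day 45, 1 rose and 1 fell in EOM, where 12.9% and 18.4% of all probe sets did, and 1 rose and 2 fell in leg, where 14.4% and 18.5% did. Aqp4, a water channel of the muscle fibre membrane, rose by 2.03 ± 0.34 in EOM (adjusted p = 2.31e-05) and by 2.42 ± 0.34 in leg (adjusted p = 1.42e-06). Cav3, the muscle caveolin, fell by 0.64 ± 0.2 in EOM (adjusted p = 0.0145) and fell by 0.84 ± 0.2 in leg (adjusted p = 0.00152). Lama2, a laminin of the muscle basement membrane, fell by 1.37 ± 0.44 in leg (adjusted p = 0.0159). Its change in EOM was -0.24, and the difference of the changes did not pass the test (adjusted p = 0.434). For Dmd, dystrophin itself, the changes were 0.8 ± 0.69 in EOM and 0.15 ± 0.69 in leg (adjusted p = 0.418 and 0.893). At days 28 and 45 none of these 6 passed the test between the muscles, and for Lama2 the day 28 value was 1.16 ± 0.44 (adjusted p = 0.0884). Of all probe sets, 7.63% were higher and 4.18% lower in EOM at day 28, and 6.89% and 3.69% at day 45.

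Genes that respond to glucocorticoids were listed because such hormones raise Myoc in the eye. Of 26, 14 were tested. From day 0 to day 45, 6 rose and 1 fell in EOM and 7 rose and 2 fell in leg, with list medians of 0.61 and 0.78. Over all tested probe sets 12.9% rose and 18.4% fell in EOM and 14.4% and 18.5% in leg, with medians of -0.04 and 0.06. Pdk4, which inhibits pyruvate dehydrogenase, rose by 3.12 ± 0.61 in EOM (adjusted p = 0.000184) and by 2.45 ± 0.61 in leg (adjusted p = 0.00223). Hsd11b1, the enzyme that regenerates active glucocorticoid within cells, rose by 2.23 ± 0.29 in EOM (adjusted p = 3.78e-07). Its change in leg was 0.04, and the difference of the changes passed the test (2.2 ± 0.4, adjusted p = 0.000848).

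In leg the largest other gains of that list were Klf9, a transcription factor (2.2 ± 0.4, adjusted p = 5.96e-05), Cebpb (2.05 ± 0.36, adjusted p = 3.65e-05) and Glul, glutamine synthetase (1.24 ± 0.22, adjusted p = 3.89e-05). Klf9 and Glul changed by 1.12 and 1.1 in EOM, and their differences between the muscles did not pass the test (adjusted p = 0.391 and 0.913). Gadd45a, a stress response gene, rose by 1.53 ± 0.2 in EOM (adjusted p = 7.75e-07). Nr3c1, the glucocorticoid receptor, changed by -2 ± 0.48 in EOM on the probe set of highest mean (adjusted p = 0.00171), and by -0.5 ± 0.48 in leg (adjusted p = 0.456), while another tested probe set of the gene changed by 0.37 ± 0.29 in EOM (adjusted p = 0.365). At day 28, 1 of the 14 was higher in EOM, Hsd11b1 (1.07 ± 0.29, adjusted p = 0.0119), and 2 were lower, Cebpb (-1.22 ± 0.36, adjusted p = 0.022) and Trim63, a ubiquitin ligase of muscle (-0.74 ± 0.22, adjusted p = 0.0254). Over all tested probe sets 7.63% were higher and 4.18% lower in EOM at that age.

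Of 40 matrix and tendon genes 29 were tested. From day 0 to day 45, 13 fell and 1 rose in EOM, and 16 fell and 1 rose in leg, with list medians of -0.59 and -1.41, while 18.4% of all probe sets fell and 12.9% rose in EOM and 18.5% and 14.4% in leg. The proteoglycan Vcan fell by 3.85 ± 0.46 in EOM (adjusted p = 1.13e-07) and fell by 4.2 ± 0.46 in leg (adjusted p = 2.02e-08). The collagen crosslinking enzyme Lox fell by 3.72 ± 0.31 in EOM (adjusted p = 1.22e-10) and fell by 3.15 ± 0.31 in leg (adjusted p = 3.3e-09). At day 28, 7 of the 29 were higher in EOM and 0 lower by limma, beside 7.63% and 4.18% of all probe sets. The 7 included the matricellular protein Postn (1.45 ± 0.21, adjusted p = 2.02e-05), the elastic fibre protein Fbln5 (1.4 ± 0.21, adjusted p = 2.05e-05) and elastin, Eln (1.39 ± 0.27, adjusted p = 0.000529). The summed intensity of the 29 ranged over 207248 to 225895 on EOM arrays and 174563 to 205197 on leg arrays at that age. The change over age differed between the muscles for 6 of the 29, all of them higher in EOM minus leg, where 2.25% of all probe sets were higher and 1.45% lower.

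Misfolded myocilin is held in the endoplasmic reticulum, so 14 genes of folding and quality control there were also followed. Over the 45 days 1 rose and 7 fell in each muscle, with list medians of -0.51 in EOM and -0.71 in leg. The same shares of all probe sets were 12.9% and 18.4% in EOM and 14.4% and 18.5% in leg, with medians of -0.04 and 0.06. Ddit3, a transcription factor of the stress response of that compartment, was the one that rose, by 1.6 ± 0.58 in EOM (adjusted p = 0.0334) and by 1.89 ± 0.58 in leg (adjusted p = 0.0112). The collagen chaperone Serpinh1 fell by 2.02 ± 0.22 in leg (adjusted p = 1.61e-08) and the protein disulfide isomerase Pdia3 changed by -0.98 ± 0.24 in EOM (adjusted p = 0.00232) and -1.85 ± 0.24 in leg (adjusted p = 5.17e-07). At day 28, when 7.63% of all probe sets were higher and 4.18% lower in EOM, 4 of the 14 were higher. They were Ddit3 (1.85 ± 0.58, adjusted p = 0.0326), Dnajb9 (1.33 ± 0.36, adjusted p = 0.0127), the lectin chaperone Canx (1.02 ± 0.3, adjusted p = 0.0224) and Ppib (0.68 ± 0.22, adjusted p = 0.0433).

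Nerve and eye tissue also express myocilin, and their markers were measured in the same samples. In whole muscle, more cells of a type and more RNA per cell cannot be told apart. Of 18 tested markers of Schwann cells and axons, 5 were higher in EOM and 1 lower at day 0, where 3.93% and 2.40% of all probe sets were. At day 28, 10 were higher, beside 7.63% higher and 4.18% lower of all probe sets. At day 14, 6 were higher, beside 2.61% higher and 2.31% lower of all probe sets, and at day 21, 5 were higher, beside 3.48% and 0.555%. No marker on the list was lower in EOM by limma at days 7 to 45. The day 28 differences were largest for S100b (3.56 ± 0.88, adjusted p = 0.00631), the myelin genes Mbp (3.51 ± 0.49, adjusted p = 9.24e-06) and Cnp (2.85 ± 0.43, adjusted p = 2.52e-05), and Mal (2.36 ± 0.26, adjusted p = 1.85e-07). Their summed intensity at day 28 was 40883 to 51479 on EOM arrays and 18770 to 21411 on leg arrays. At day 7, when Myoc differed by 0.02, it was 43849 to 52554 and 34521 to 38379, and 7 markers were higher in EOM, where 3.33% of all probe sets were higher and 1.65% lower. From day 0 to day 45 in EOM 1 of the 18 rose and 2 fell, with a list median of 0, where 12.9% and 18.4% of all probe sets did. At day 45, when the Myoc arrays overlapped again, the summed intensity of the 18 was 33606 to 50336 in EOM and 20450 to 23924 in leg. In leg the sum was 30248 to 37340 at day 0, above its day 28 range, while Myoc in leg rose between these ages. The part of nerve in the Myoc difference at day 28 was not tested.

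Of 12 tested markers of eye and orbit tissue, 6 were higher in EOM and 1 lower at day 0, beside 3.93% and 2.40% of all probe sets. At that age Myoc was at the floor on all but 1 array. At day 0 Mia, which is also on the list of cartilage and bone genes, differed by 4.84 ± 0.34 (adjusted p = 7.6e-11). Alx1, a transcription factor of craniofacial mesenchyme, was at the floor on all 3 leg arrays of that age, and its EOM level exceeded that floor by at least 22.1-fold (limma adjusted p = 8.53e-10). Cyp1b1, mutated in human congenital glaucoma, was at the floor on 2 of the 3 and at least 21.8-fold higher (adjusted p = 1.26e-09). From day 0 to day 45, 1 of the 12 rose and 4 fell in EOM, with a list median of 0.19, and 5 rose and none fell by limma in leg, with a median of 0.78, where 12.9% and 18.4% of all probe sets did in EOM and 14.4% and 18.5% in leg. In EOM Aqp1 rose by 3 ± 0.28 (adjusted p = 9.55e-10), while Mia changed by -4.83 ± 0.34 (adjusted p = 4.67e-12) and Alx1 by -4.13 ± 0.37 (adjusted p = 4.8e-10). Mia was at the floor on 1 of the 3 EOM arrays of day 45, so the size of its fall is a lower bound. At day 28, when 7.63% of all probe sets were higher and 4.18% lower in EOM, 2 of the 12 were higher. They were Cyp1b1 (2.26 ± 0.38, adjusted p = 0.000107) and the water channel Aqp1 (1.12 ± 0.28, adjusted p = 0.00641). The summed intensity of the 12 at day 28 was 14865 to 18703 on EOM arrays and 7722 to 11269 on leg arrays. Rpe65, which defines the retinal pigment epithelium and is not among the 12 tested, was at the floor on all 18 EOM arrays. Pax6 was at the floor on 10 of them, but on 0 at day 0, where its EOM mean was 9.9, and on 1 at day 45. Of the other tested markers, Alx1 was at the floor on 4 EOM arrays, Mia on 2 and the rest on none. The part of eye tissue in the Myoc level was not tested.

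Of 14 tested adipocyte markers, 8 rose and 1 fell in EOM from day 0 to day 45 and 2 rose and 3 fell in leg, where 12.9% and 18.4% of all probe sets did in EOM and 14.4% and 18.5% in leg. At day 28, 4 were higher and 1 lower in EOM, beside 7.63% and 4.18% of all probe sets. The lipid synthesis enzymes Scd (2.76 ± 0.51, adjusted p = 0.000326) and Scd2 (1.89 ± 0.29, adjusted p = 2.64e-05) were higher and Gpd1 (-2.97 ± 0.65, adjusted p = 0.00231) was lower. The summed intensity of the 14 at day 28 was 45330 to 59321 on EOM arrays and 42820 to 43673 on leg arrays, and the part of fat in the Myoc level was not tested.

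Leg replicate 3, the highest for Myoc at days 21, 28 and 45, was set against the mean of the other leg arrays of its age. The median of the Schwann cell and axon markers stood 0.5 above it at day 21, -0.45 from it at day 28 and 0.11 above it at day 45 on the log2 scale. For the matrix and tendon genes these values were 0.25, -0.17 and 0.47, and for the eye and orbit markers -0.05, -0.6 and -0.2. Of all 17 lists, 1 was higher on replicate 3 at all 3 ages, that of integrin, focal adhesion and Akt signalling (0.07, 0.31 and 0.37). Of the 10 genes most like Myoc, replicate 3 was the highest leg array for 2 at day 21, 7 at day 28 and 5 at day 45, and at all 3 ages for Gpx3 and Cd59b. Gpx3 read 2754.1, 2724 and 4041.8 at day 21, 3767, 2027.7 and 5022.7 at day 28, and 5697.3, 8621.5 and 10326.8 at day 45. The part of this array in the Myoc level was not tested beyond leaving it out.

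Myh13, the myosin of extraocular muscle, checks the muscle labels. Its group mean was 14.4 in EOM and 8.51 in leg at day 45, but 8.16 and 8.45 at day 0, and Tnni2, the fast troponin I, read at least 8055.3 on every EOM array and 12311.3 on every leg array. Another muscle fibre gene, Ckm, did not behave so. It was at the floor on 7 EOM and 14 leg arrays, with means of 6.66 in both muscles at days 21 and 28. The cause was not tested, and Ckm is 1 of the 24 genes counted next. Of 24 skeletal muscle fibre genes 12 rose and 0 fell by limma in EOM, and 9 rose and 2 fell in leg, where 12.9% and 18.4% of all probe sets did in EOM and 14.4% and 18.5% in leg. The median change of these 24 genes from day 0 to day 45 was 0.61 in EOM and 0.34 in leg, against 4.61 and 4.51 for Myoc.

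**Figure D5:**
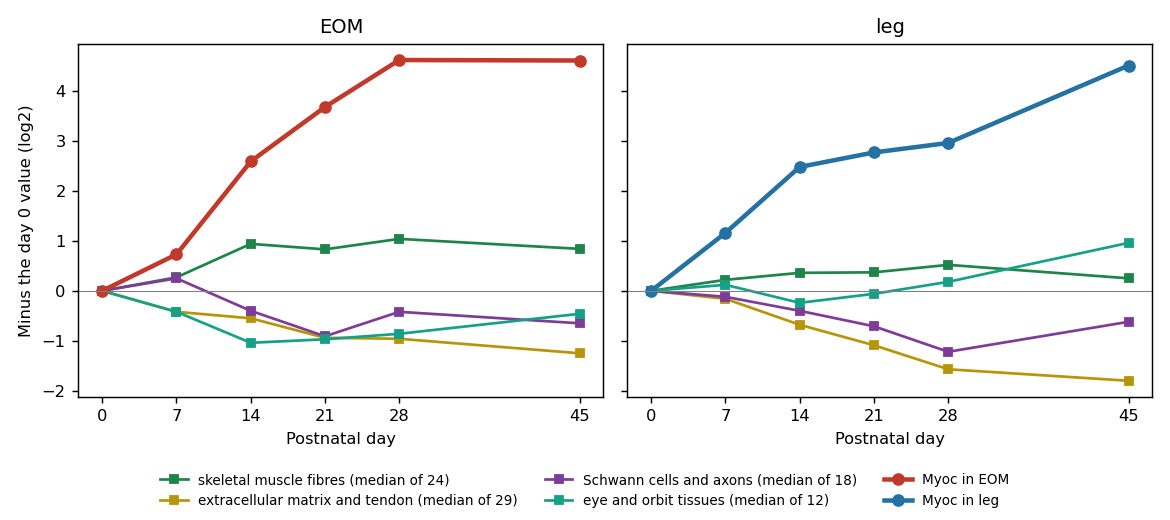
Myoc group mean and the median of the tested members of 4 marker lists, each minus its own day 0 value (log2), against postnatal day in EOM and leg. Myoc rises by 4.61 in EOM and 4.51 in leg while the matrix and tendon median falls in both muscles.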

How the data were processed

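The 36 arrays were grouped by muscle and age from the labels. The authors deposited a linear intensity for each probe set on each array. Its mean between the lowest and highest few percent of values was 1499.4 to 1501.1 on every array, so a common scaling had been applied. Neither labels nor files name the software that made these values. Array medians were 418.7 to 652.2, arrays of a group correlated at 0.877 to 0.953, and the number of arrays limits the precision.

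Values were floored at 100.9 (the 20th percentile) and turned to log2. After removing 59 control probe sets, the 6672 above 320.4 (the 40th percentile) on at least 3 arrays were tested. Platform annotation named 7006 probe sets with 1 symbol and 308 with several, and left 1426 unnamed here. Where a gene had several probe sets, the brightest on average stood for it. Group means were fitted with limma 3.58.1 in R 4.3.3 (trended prior, 24 residual degrees of freedom), adjusted by Benjamini-Hochberg within each comparison, and the fit was tested on simulated data. Figures were drawn with matplotlib 3.10.9. Every adjusted p is limma's.

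The members and lists were chosen with earlier results of these data known. By the rule for named genes, the text names the 10 most and 5 least similar genes over all groups, the 3 most similar in each muscle, up to 4 members past the threshold per list and comparison (or 2 as values), and 9 followed genes, of which 7 were measured. Myh13 and Tnni2 check the labels, and Ckm is named beside them. Alternatives changed the scaling, floor, log scale, arrays fitted, replicate block and measure of likeness, or left out arrays.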

Additional observations from a re-analysis of the deposited data

Results flagged for a closer look

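Of 84 named genes, 18 had a change from day 0 to day 45 that differed between EOM and leg by the limma test of the difference itself, given here as EOM minus leg on the log2 scale. Myoc is not among the genes tested, since it was chosen on these values. The difference was 6.19 ± 0.84 for Myh13 (adjusted p = 1.95e-05). Among eye and orbit markers it was -4.38 ± 0.49 for Mia (adjusted p = 6.12e-07), -4.13 ± 0.52 for Alx1 (adjusted p = 5.77e-06), -2.71 ± 0.44 for Pax6 (adjusted p = 0.00021), -2.52 ± 0.54 for Cyp1b1 (adjusted p = 0.00431) and 1.43 ± 0.39 for Aqp1 (adjusted p = 0.0334). Alx1 and Pax6 were at the floor on all 18 leg arrays, so their leg change is fixed at 0 and these values restate the EOM change. Mia is also on the list of cartilage and bone genes. It was at the floor on 1 of the 3 EOM arrays of day 45, and Cyp1b1 on 2 of the 3 leg arrays of day 0. The differences of Mia and Cyp1b1 are therefore limited by the floor too.

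Among glucocorticoid-responsive genes it was 2.2 ± 0.4 for Hsd11b1 (adjusted p = 0.000848), 1.79 ± 0.29 for Gadd45a (adjusted p = 2e-04) and -2.07 ± 0.5 for Cebpb (adjusted p = 0.0154), which changed by -0.02 in EOM and 2.05 in leg. For Schwann cell genes it was -3.01 ± 0.6 for Sox10 (adjusted p = 0.00201) and 1.76 ± 0.35 for Pmp22 (adjusted p = 0.00199). Sox10 was at the floor on 15 leg arrays, so its leg change of -0.39 is limited by the floor. Its difference mostly restates the EOM change of -3.41. Adipocyte markers gave 2.68 ± 0.4 for Cidea (adjusted p = 7.23e-05), 2.26 ± 0.51 for Cd36 (adjusted p = 0.00703) and 1.58 ± 0.37 for Acly (adjusted p = 0.0116). The changes in EOM and leg were 0.9 and -1.78 for Cidea, 2.91 and 0.65 for Cd36, and -0.34 and -1.92 for Acly. Matrix and folding genes gave 1.45 ± 0.3 for Postn (adjusted p = 0.00367), 1.39 ± 0.39 for Lum (adjusted p = 0.0361), 1.36 ± 0.31 for Ppib (adjusted p = 0.00966) and 1.18 ± 0.31 for Serpinh1 (adjusted p = 0.0251, and 0.0615 with arrays scaled to one median). These positive differences are smaller falls in EOM, not gains. The changes in EOM and leg were -1.95 and -3.39 for Postn and -0.72 and -2.11 for Lum. They were -0.62 and -1.99 for Ppib and -0.84 and -2.02 for Serpinh1.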

How the results depend on the processing

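Of the Myoc differences under other settings with all arrays kept, 87 stayed within the spread of the compared groups, 7 moved and 1 reversed. All 120 with an array left out stayed within it. Dropping 1 of 3 arrays can hardly shift a group mean beyond that spread. The count of 120 was therefore close to fixed in advance and is no sign of robustness. Single values did shift, as at day 45, where EOM minus leg went from 0.54 to 0.9 without leg replicate 3. With a floor at the 10th percentile, Myoc in EOM minus leg at day 0 was 1.19, the leg change from day 0 to day 45 was 5.53, its first step was 2.18 and the difference of the changes reversed to -0.64. All 3 leg arrays of day 0 lie under the floor used. With log2(value + 100) the changes were 3.95 in EOM and 4.05 in leg, and the EOM step from day 7 to day 14 was 1.49. Scaling to one median made the EOM step from day 28 to day 45 -0.17, whose cause was not tested.

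Of the 10 genes most like Myoc, 5 were kept by Spearman correlation, 5 over the 36 arrays, 4 by the lower of the within-muscle values and 8 to 10 without an array, an alternative chosen after seeing the data. Quantile normalization called 177 probe sets at day 21 in place of 269. Fits on the compared arrays alone, which have fewer arrays, called 221, 176, 22, 432 and 132 at days 7 to 45 and 116 for the difference of changes, in place of 332, 328, 269, 788, 706 and 247. Scaling to one median shifted the median of all probe sets by -0.134 at day 0, -0.141 at day 21 and 0.112 for the EOM change, and split the calls into 199 higher and 203 lower (262 and 160 before), 130 and 57 (232 and 37), and 1012 and 1010 (861 and 1229).

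Leaving out arrays in turn, calls ranged over 278 to 390 at day 0, 190 to 294 at day 7, 177 to 333 at day 14, 82 to 343 at day 21, 515 to 694 at day 28 and 439 to 764 at day 45. The lowest came without leg replicate 1 of day 0, EOM replicate 2 of day 7, leg replicate 2 of day 14, EOM replicate 3 of day 21, EOM replicate 2 of day 28 and leg replicate 2 of day 45. With a replicate block, Myoc at day 28 was 2.11 and 914 probe sets were called there, partners called at day 45 went from 1 to 3, and the differences of changes of Cfd (0.0555 to 0.0138) and Pdia3 (0.197 to 0.0356) passed by adjusted p. Same-numbered EOM and leg arrays deviated together (all 3 correlations over 0.1) at 3 of 6 ages, and 30 of 36 arrays correlated best with their own number, a hint from the data. A mean of several Myoc probe sets was not run, since there is 1.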
